A study of Mus musculus with 6 samples.

Results

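The proteasome genes described here are the 45 symbols of the Psm families a to g, chosen by name from the 36699 rows of a gene table, with the 3 immunoproteasome subunits Psmb8, Psmb9 and Psmb10 left out of the set and used as a comparison. The RNA came from A2Lox.cre mouse embryonic stem cells in which doxycycline (Dox) switches on Flag-tagged Lef1, the DNA-binding partner of beta-catenin in Wnt signalling. Cells had been kept on mouse embryonic fibroblasts, were freed of them and grew as floating embryoid bodies until day 3. The plus_Dox group (3 libraries, numbered 1, 2 and 3) received Dox from day 2 for 24 h, and the minus_Dox group (3 libraries, numbered 1, 3 and 4) received none. Both groups carry the same Flag-Lef1 construct, and no group with Dox but without the construct is among the samples used here. The labels do not say whether libraries of a group came from separate cultures, so their spread may be technical. The question was which genes respond to induced Lef1.

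The proteasome is the protease that degrades proteins tagged with ubiquitin, and dividing stem cells express it at high levels. Its barrel-shaped core is built from outer rings of alpha subunits, which gate the entry, and inner rings of beta subunits, 3 of which (Psmb5, Psmb6 and Psmb7) cut peptide bonds. A regulatory particle caps the barrel: its base holds a ring of ATPases (Psmc genes) that unfold substrates, and its lid removes the ubiquitin chain. Other caps, the activators encoded by Psme1 to Psme4, open the gate without ATP. The subunit genes are commonly transcribed together through antioxidant response elements bound by Nfe2l1.

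The values are FPKM (fragments counted per kilobase of transcript and scaled to library size), 1 value per gene and group, so no value of a single library, SD or depth is known and whether groups overlap cannot be seen. A change is called where the q-value (the authors' p-value adjusted over all 18114 tested rows) is below 0.05. The standard error (SE) printed beside a log2 ratio or fold is that fold divided by the authors' statistic. Lef1 itself rose 6.75-fold per the authors' deposited table, from 7.56 to 51.0 FPKM (95% interval 5.21 to 8.74). Of 6 markers of pluripotent and epiblast cells, 5 were tested: Nanog rose from 28.6 to 109.7 FPKM and Dppa5a from 362.7 to 523.6 FPKM, Sox2 fell from 56.2 to 30.9 FPKM, and Pou5f1 (820.2 and 1510.2 FPKM) and Fgf5 (54.1 and 43.8 FPKM) did not pass. Per the authors' deposited table all 4 primitive streak markers also rose, T from 0.381 to 4.76 FPKM, Fgf8 from 4.06 to 51.7 FPKM, Eomes from 7.83 to 18.9 FPKM and Mixl1 from 0.307 to 0.886 FPKM. Their part in the proteasome results was not tested. The 6 fibroblast markers summed to 17.6 and 22.6 FPKM, of which Thy1 gave 11.9 and 16.6 FPKM, and 0 passed. Of 3 blood and immune genes, the leukocyte gene Ptprc (0.0268 and 0.0188 FPKM) was not tested. The other genes of that list, Cd68 (3.73 and 5.96 FPKM) and Itgam (0.076 and 0.108 FPKM), did not pass. Among 4 extraembryonic endoderm markers, Sox17 rose from 2.45 to 3.91 FPKM, and Gata4, Gata6 and Afp did not pass. In bulk RNA, a change in the make-up of the cells and a change in RNA per cell cannot be told apart. Across 12240 tested rows reaching 1 FPKM in a group, the median log2 fold was 0.20, so most genes of the table lean towards plus_Dox.

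Promoter sequences are shown first because the members are known for shared control. RefSeq (GRCm38.p6) gave a window of 300 bases, 250 before and 50 from the annotated start site on, for 37 of the 45 genes, and 5 motifs were searched on both strands, overlaps between motifs being allowed. The core of the antioxidant response element, TGACNNNGC, was found in 6 of the 37 windows (16.2%), against 12.5% of the windows of all 27025 genes with an entry. Of the 11 called genes with a window, 2 held it, as did 4 of the 26 others. Capitals mark this match in the bases just upstream of the start sites of Psmb5 and Psmb6, which were called, and in shorter stretches of Psmd9 and Psmc6, which were not.
Psmb5, chr14:54617996-54618145, minus strand: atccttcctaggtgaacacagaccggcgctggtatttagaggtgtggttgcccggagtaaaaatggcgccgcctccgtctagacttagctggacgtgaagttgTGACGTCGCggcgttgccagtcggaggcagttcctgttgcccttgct
Psmb6, chr11:70525207-70525356, plus strand: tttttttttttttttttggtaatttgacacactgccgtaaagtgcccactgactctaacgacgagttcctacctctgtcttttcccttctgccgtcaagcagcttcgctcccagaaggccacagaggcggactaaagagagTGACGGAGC
Psmd9, chr5:123228143-123228183, plus strand: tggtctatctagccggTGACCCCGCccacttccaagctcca
Psmc6, chr14:45329581-45329621, plus strand: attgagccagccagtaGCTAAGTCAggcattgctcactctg

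The ETS motif CCGGAAG was present in 13 of the 37 windows (35.1%), against 9.12% of all 27025. Of the 11 called genes 2 held it, Psmd4 and Psmg3, and of the 26 others 11 did. Most matches lay in genes of the regulatory particle, of which Psmc1, Psmc2 and Psmd6 are shown with the assembly chaperone gene Psmg1. None of these 4 genes passed the test. Capitals mark the ETS match on either strand.
Psmc1, chr12:100110158-100110196, plus strand: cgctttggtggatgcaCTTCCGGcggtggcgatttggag
Psmc2, chr5:21785175-21785213, plus strand: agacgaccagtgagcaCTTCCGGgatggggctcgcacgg
Psmd6, chr14:14120968-14121006, minus strand: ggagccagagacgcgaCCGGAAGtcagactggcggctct
Psmg1, chr16:95991007-95991045, minus strand: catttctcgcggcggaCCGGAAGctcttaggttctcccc

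The Tcf/Lef motif CTTTGAT, the type of sequence that Lef1 binds, occurred in 2 of 37 windows, those of Psmd4 and Psmd10, against 3.72% of all windows. CCAAT was found in 13 of 37 (35.1%, against 37.9% of all). A motif added after the values had been seen, TTTCNNTTT, is the core of the interferon-stimulated response element and was found in 6 of 37 windows (16.2%), against 10.7% of all. Its holders were Psmb3, Psmd4 and Psme1, which were called, and Psmd9, Psmd11 and Psmg4, which were not. In Psme1 the match, TTTCGCTTT, begins 9 bases after the first transcribed base and is named only. The stretches of Psmb3 and Psmd4 carry this motif in capitals and that of Psmd10 the Tcf/Lef motif. A match describes letters in a window and not a bound site.
Psmb3, chr11:97703255-97703295, plus strand: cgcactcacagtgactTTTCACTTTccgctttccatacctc
Psmd4, chr3:95042670-95042710, minus strand: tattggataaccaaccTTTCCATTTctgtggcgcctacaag
Psmd10, chrX:140956718-140956756, minus strand: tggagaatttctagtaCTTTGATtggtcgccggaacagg

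**Figure D1:**
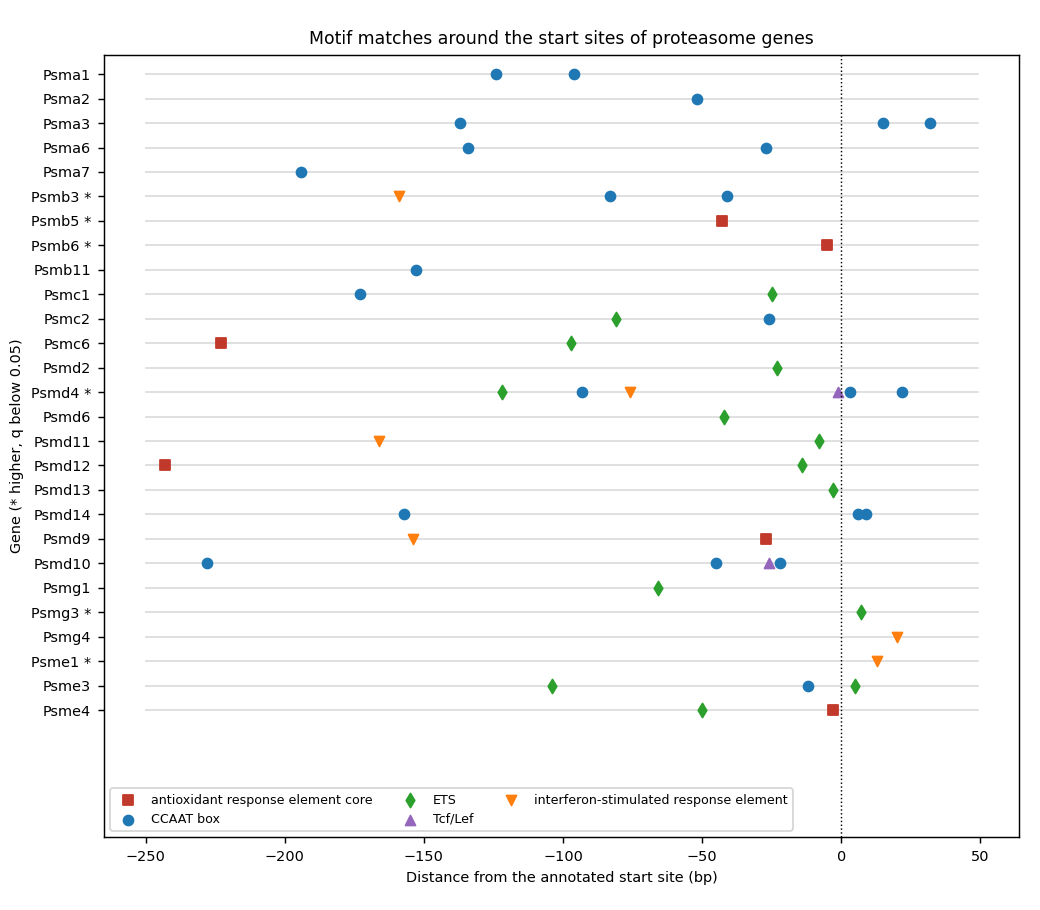
Positions of the 5 motifs around the annotated start sites (distance in bp, negative upstream) in the proteasome genes with at least 1 match; an asterisk marks genes higher in plus_Dox with q below 0.05. ETS matches (diamonds) lie between -125 and 10 bp, and the 2 Tcf/Lef matches (triangles) belong to Psmd4 and Psmd10.

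Part of the proteasome gene set was higher after Lef1 induction. Of 45 genes 44 were tested, of which 13 rose, 0 fell and 31 did not pass. The rises made up 29.5% of the tested members, against 8.98% of all 18114 tested rows, and 3.22% of all rows fell. Proteasome genes are strongly expressed, and such rows were called more often: of 1641 tested rows with at least 50 FPKM in minus_Dox, 25.7% rose, against 12 of the 36 members at that level (33.3%). The members' share is therefore near that of other highly expressed rows. At an unadjusted p below 0.05, 23 members were higher and 0 lower, against 17.2% and 6.14% of all tested rows. The log2 fold was above 0 in 40 members and below 0 in 4, with a median of 0.37 and a range from -0.59 (Psme4) to 1.11 (Psme2). That median lies 0.17 above the median of rows with at least 1 FPKM, and the median of rows with at least 50 FPKM in minus_Dox was 0.33. With q below 0.01 or 0.1 the rises numbered 9 and 18, against 4.97% and 12.1% of all tested rows, and 0 members fell, against 1.69% and 4.23%. With a minimum of 1 or 5 FPKM in either group they stayed at 13, where 12.3% and 14.9% of rows rose and 4.23% and 4.0% fell. Among rows naming 1 gene 13 members rose (8.98% of such rows, with 3.24% falling), and among rows that overlap no other 10 did (11.9% and 4.14%). The rows of 15 members overlap another row. The 95% intervals of 35 members lay wholly below a doubling.

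These counts depended on 2 properties that were treated as alternatives. When the general shift of 0.20 was subtracted, 5 members passed as higher (Psmb4, Psmb5, Psmb6, Psmg3 and Psme2) and 1 as lower (Psmc6), against 3.47% and 6.1% of 17830 rows. When a smooth trend of fold on transcript GC content and length was removed, the members' median log2 fold was 0.043, 0 of the 13 rises passed and 1 other member, Psma2, did, against 1.23% of 17001 rows, and 0 fell, against 0.941%. With transcripts of middle length the same single gene passed, where 1.33% of rows rose and 1.64% fell. The fitted trend includes the general level of the folds, so its removal also takes out the shift of 0.20. The median log2 fold of rows with at least 1 FPKM was then -0.015. The drop of the members' median therefore does not measure GC content and length alone.  Values under these alternatives are given beside the called members.

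**Figure D2:**
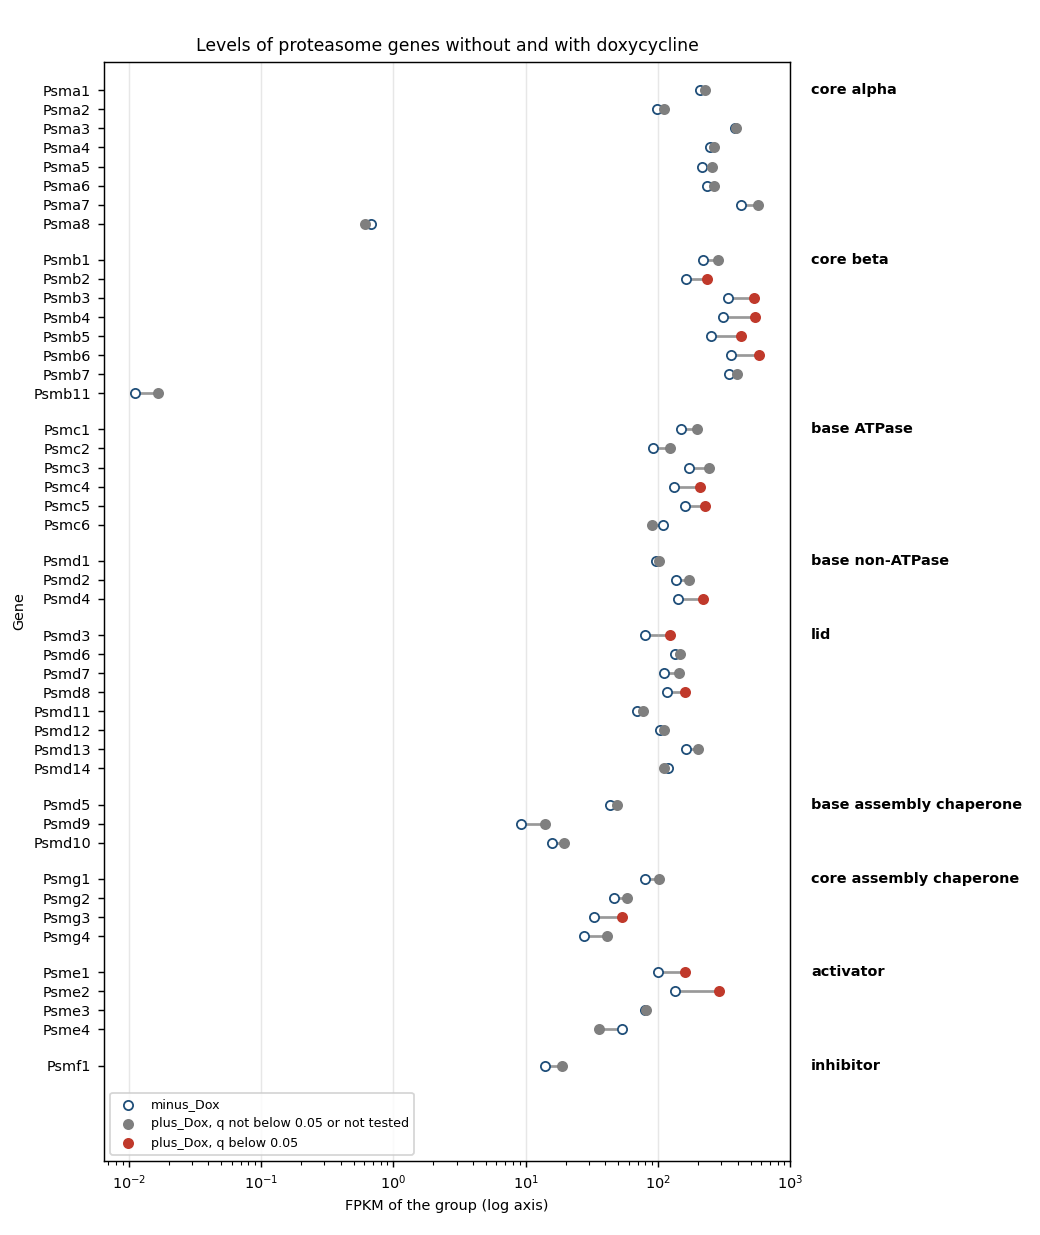
FPKM of each proteasome gene (log axis) in minus_Dox (open circles) and plus_Dox (filled circles, red where q is below 0.05), by subcomplex. Core beta genes reach up to 581.6 FPKM in plus_Dox, while Psma8 and Psmb11 lie below 1 FPKM in both groups.

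The alpha ring showed no call, while 25.7% of tested rows with at least 50 FPKM in minus_Dox rose. The authors' values for its 7 general subunits ranged from 98.2 (Psma2) to 420.7 FPKM (Psma7) in minus_Dox and from 111.0 to 567.7 FPKM in plus_Dox, with Psma7 highest in both. Psma7 also had the largest fold of the ring (log2 ratio 0.43 ± 0.20 SE and q = 0.15, per the authors' deposited table). Psma3, at 381.8 and 388.9 FPKM, had the smallest fold of the 7 (log2 ratio 0.03 ± 0.21 SE and q = 1.00, per the authors' deposited table), with a 95% interval of the fold from 0.77 to 1.36. Psma1 (208.0 and 226.7 FPKM), Psma4 (248.3 and 264.9), Psma5 (215.3 and 257.7) and Psma6 (235.6 and 263.5) lay between them. All 7 were above 0, but only Psma5 and Psma7 exceeded the general shift of 0.20. Psma2 went from 98.2 to 111.0 FPKM (log2 ratio 0.18 ± 0.16 SE and q = 0.60, per the authors' deposited table). Its annotated transcript is rich in A and T (39.4% GC) and 2911 nt long, and on trend removal its log2 fold became 0.57 (q = 0.023). Psma8, the alpha subunit of the testis, replaces Psma7 in germ cells and was near the floor of the set, at 0.682 FPKM in minus_Dox and 0.615 in plus_Dox (q = 0.91 in the authors' deposited table).

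Of the 7 tested beta subunit genes 5 rose and 2, Psmb1 and Psmb7, did not pass. All 7 had at least 50 FPKM in minus_Dox, a level at which 25.7% of tested rows rose. Psmb4, a structural subunit, had the largest fold of the core: it rose from 307.9 to 539.8 FPKM, a 1.75-fold change with a 95% interval of 1.33 to 2.31 (log2 ratio 0.81 ± 0.20 SE and q = 0.0017, per the authors' deposited table). Its row covers chromosome 3 from 94688014 to 94690883 in mm9. Psmb5, which encodes the chymotrypsin-like site and is the main target of proteasome inhibitors, rose from 252.5 to 421.3 FPKM (1.67-fold, interval 1.34 to 2.08, q = 0.00028 in the authors' deposited table). Psmb6, the caspase-like site, had the highest level of any member with Dox and rose from 356.0 to 581.6 FPKM (1.63-fold, interval 1.30 to 2.05, q = 0.00073 in the authors' deposited table). These 3 genes also passed relative to the general shift, with log2 folds of 0.61, 0.54 and 0.51. Psmb7, the trypsin-like site, stood at 345.4 and 394.2 FPKM (log2 ratio 0.19 ± 0.17 SE and q = 0.60, per the authors' deposited table). The Psmb7 row spans 132.4 kb and overlaps 3 other rows, among them Nek6, so its value is uncertain. The catalytic genes therefore included 2 calls and 1 gene that did not pass, and the difference between them was not tested.

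The remaining beta genes are structural. Psmb3 rose from 339.8 to 529.7 FPKM (log2 ratio 0.64 ± 0.16 SE and q = 0.0018, per the authors' deposited table) and Psmb2 from 163.6 to 233.5 FPKM (log2 ratio 0.51 ± 0.16 SE and q = 0.018). Psmb1 went from 217.1 to 286.2 FPKM (log2 ratio 0.40 ± 0.16 SE and q = 0.083, per the authors' deposited table), which missed the threshold of 0.05 and passes one of 0.1. Psmb11, the catalytic subunit of the thymus, was not tested and stood at 0.0112 and 0.0168 FPKM. Relative to the general shift Psmb2 (0.31, q = 0.26) and Psmb3 (0.44, q = 0.060) did not pass. After trend removal the log2 folds were 0.00 for Psmb2, 0.01 for Psmb3, 0.31 for Psmb4, 0.03 for Psmb5 and 0.01 for Psmb6, and none passed.

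Each alpha and each beta subunit enters the core in equal number, but the RNA levels summed here do not measure protein. The 7 general alpha genes summed to 1808 FPKM in minus_Dox and 2080 FPKM in plus_Dox, and the 7 beta genes to 1982 and 2986 FPKM. The ratio of beta to alpha was 1.10 without and 1.44 with Dox, not adjusted for GC content or length. The median log2 fold was 0.16 for the alpha genes and 0.64 for the beta genes. After trend removal, which also takes out the general shift, the medians were -0.03 and 0.01. Median transcript GC content was 45.0% for the alpha genes and 52.2% for the beta genes. The rows of Psma3, Psma4, Psma5, Psma6 and Psmb7 overlap other rows, so both sums are uncertain. The difference between the rings itself was not tested.

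**Figure D3:**
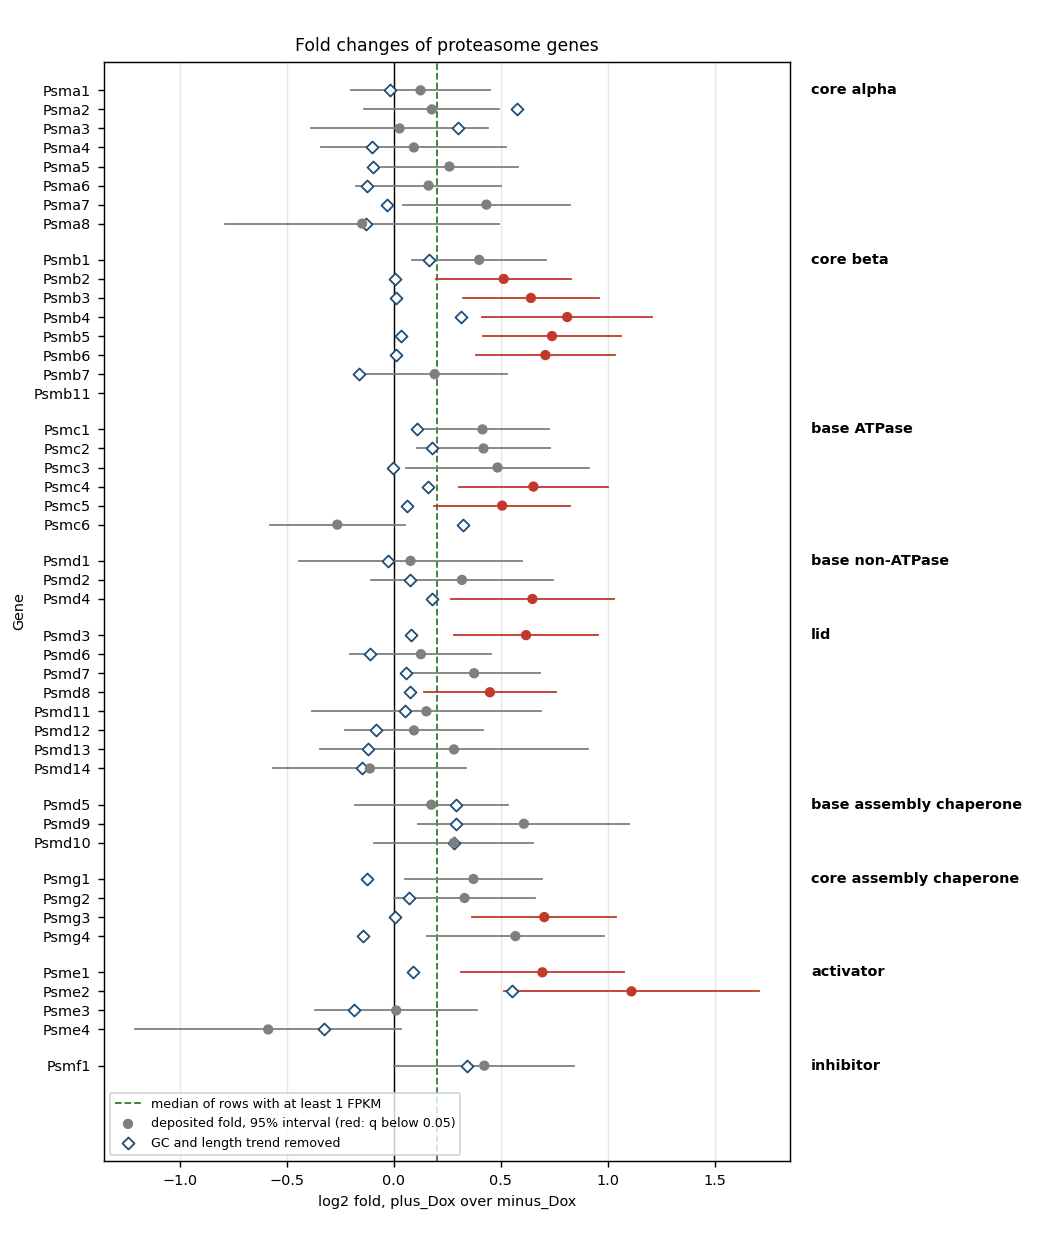
Log2 fold of plus_Dox over minus_Dox for the 44 tested proteasome genes with 95% intervals (circles, red where q is below 0.05) and after removal of the GC and length trend (open diamonds); the dashed line is the median of rows with at least 1 FPKM, 0.20. The red circles of the beta subunits lie between 0.51 and 0.81, and their diamonds between 0.00 and 0.31.

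Of the 6 ATPase genes of the base, 2 rose and 4 did not pass. All 6 had at least 91.4 FPKM in minus_Dox, and of tested rows with at least 50 FPKM there 25.7% rose. Psmc4 rose from 131.9 to 207.3 FPKM (log2 ratio 0.65 ± 0.18 SE and q = 0.0048, per the authors' deposited table) and Psmc5 from 159.5 to 226.5 FPKM (log2 ratio 0.51 ± 0.16 SE and q = 0.021). Neither passed relative to the general shift, Psmc4 at 0.45 (q = 0.090) and Psmc5 at 0.31 (q = 0.28), or with the trend removed, at 0.16 and 0.060. The Psmc5 row overlaps a row named U6. Psmc3, the most abundant of the ring in both groups, stood at 172.4 and 241.2 FPKM (log2 ratio 0.48 ± 0.22 SE and q = 0.14, per the authors' deposited table). The Psmc3 row overlaps that of Slc39a13. Psmc1 (148.7 and 198.1 FPKM, q = 0.066 in the authors' deposited table) and Psmc2 (91.4 and 122.2 FPKM, q = 0.062) just missed the threshold. The 5 genes named so far had log2 folds of 0.41 to 0.65. Psmc6 had the lowest fold of the ring, at 108.6 FPKM in minus_Dox and 90.4 FPKM in plus_Dox (log2 ratio -0.26 ± 0.16 SE and q = 0.34, per the authors' deposited table). It passed as lower once the general shift was subtracted (-0.46, q = 0.043). Its transcript has the lowest GC content of the members, 37.0%, and with the trend removed its log2 fold was 0.32 (q = 0.53), the opposite sign.

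The other base subunits bind ubiquitin or shuttle proteins. Psmd4, a ubiquitin receptor, rose from 140.5 to 220.0 FPKM (1.57-fold, interval 1.20 to 2.04, q = 0.012 in the authors' deposited table). It passed neither relative to the general shift (0.45, q = 0.14) nor with the trend removed (0.18). Psmd2, a docking subunit, stood at 137.0 and 170.7 FPKM (log2 ratio 0.32 ± 0.22 SE and q = 0.42, per the authors' deposited table). The Psmd1 row joins Armc9 and spans 237.0 kb, so its 96.5 and 101.8 FPKM are uncertain (q = 0.97 in the authors' deposited table).

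In the lid, 2 of 8 genes rose (25.0%). All 8 had at least 69.5 FPKM in minus_Dox, and of tested rows with at least 50 FPKM there 25.7% rose. The share of the lid is therefore near that of other highly expressed rows. Psmd3, a scaffold subunit, went from 79.6 to 122.2 FPKM (log2 ratio 0.62 ± 0.17 SE and q = 0.0054, per the authors' deposited table) and Psmd8 from 117.8 to 160.7 FPKM (log2 ratio 0.45 ± 0.16 SE and q = 0.040). Neither passed relative to the general shift, Psmd3 at 0.42 (q = 0.11) and Psmd8 at 0.25 (q = 0.41), or with the trend removed, at 0.080 and 0.076. The Psmd3 row overlaps Gm12356. Psmd13 had the highest level of the lid, 163.7 and 198.9 FPKM, with the widest SE of that group (log2 ratio 0.28 ± 0.32 SE and q = 0.72, per the authors' deposited table). Its row overlaps those of Ric8 and Sirt3. Psmd14, the deubiquitinase that cleaves the chain from the substrate, was the lid gene with the lowest fold, at 119.3 and 110.4 FPKM (log2 ratio -0.11 ± 0.23 SE and q = 0.90, per the authors' deposited table). Psmd7, which pairs with Psmd14, stood at 110.7 and 143.5 FPKM (log2 fold 0.38, q = 0.11 in the authors' deposited table). Psmd6, Psmd11 and Psmd12 had log2 folds of 0.13, 0.15 and 0.09 in the authors' deposited table. The median log2 fold of the lid, 0.22, was close to the general shift.

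Among the members that help to build the particle, 1 of 7 rose, while 14.9% of tested rows with at least 5 FPKM in a group rose. Pomp, a maturation factor outside the Psm names, is counted with the partners below. Psmg1 to Psmg4 encode chaperones that pair up to assemble the alpha ring. Psmg3 rose from 33.1 to 53.8 FPKM (1.63-fold, interval 1.29 to 2.06, q = 0.0013 in the authors' deposited table). It passed relative to the general shift (0.50, q = 0.039) but not with the trend removed (0.0052). Its partner Psmg4 stood at 27.6 and 40.9 FPKM (log2 ratio 0.57 ± 0.21 SE and q = 0.056, per the authors' deposited table). Psmg1, the most abundant of the 4 (79.1 and 102.4 FPKM, log2 fold 0.37, q = 0.13 in the authors' deposited table), and its partner Psmg2 (46.4 and 58.3 FPKM, 0.33, q = 0.21) did not pass. The chaperones of the base, Psmd5 (43.2 and 48.8 FPKM), Psmd9 (9.15 and 13.9 FPKM) and Psmd10 (15.9 and 19.3 FPKM), had log2 folds of 0.18, 0.61 and 0.28 in the authors' deposited table and did not pass. The Psmd9 row spans 202.8 kb and overlaps 7 other rows, so its value is uncertain.

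Of the 5 activator and inhibitor genes 2 rose, Psme1 and Psme2, and 3 did not pass. With at least 5 FPKM in a group 14.9% of tested rows rose, and with at least 50 FPKM in minus_Dox 25.7% did. Psme1 and Psme2 encode the subunits of a joint cap that interferon induces, and their rows lie 2.14 kb apart on chromosome 14 in mm9. Psme2 (56206277 to 56209950) had the largest fold of all members: it rose from 134.1 to 289.5 FPKM, 2.16-fold with an interval of 1.43 to 3.26 (log2 ratio 1.11 ± 0.30 SE and q = 0.0050, per the authors' deposited table). Psme1 (56196959 to 56204139) rose from 99.3 to 160.7 FPKM (1.62-fold, interval 1.24 to 2.11, q = 0.0064 in the authors' deposited table). The Psme1 row overlaps Fam158a, and Psme2 has near-identical copies. A row that holds the copy Psme2b-ps with 9930111J21Rik1 went from 0.194 to 0.541 FPKM (q = 0.043 in the authors' deposited table). That row spans 230.7 kb and overlaps 8 other rows, so its value is uncertain. It passed neither relative to the general shift (q = 0.11) nor with the trend removed (q = 0.14). The sources used here do not say how shared reads were divided. Psme2 passed relative to the general shift (0.91, q = 0.034) and Psme1 did not (0.49, q = 0.090). With the trend removed neither passed, at 0.55 (q = 0.66) for Psme2 and 0.09 (q = 1.00) for Psme1.

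Psme3, which forms a nuclear cap of its own, stood at 79.9 and 80.5 FPKM (log2 ratio 0.01 ± 0.19 SE and q = 1.00, per the authors' deposited table), with an interval of the fold from 0.77 to 1.31. Psme4, a large single-chain activator known from testis and DNA repair, had the lowest fold of all members, at 53.6 FPKM without and 35.7 FPKM with Dox (log2 ratio -0.59 ± 0.32 SE and q = 0.25, per the authors' deposited table). Its interval, from 0.43 to 1.02, includes no change. It also has the longest transcript of the set, 6491 nt. Psmf1, a core inhibitor, stood at 14.0 and 18.7 FPKM (log2 ratio 0.42 ± 0.21 SE and q = 0.21, per the authors' deposited table).

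The immunoproteasome genes were set beside the activators because interferon induces both. Psmb10, the inducible counterpart of Psmb7, rose from 22.6 to 62.0 FPKM (log2 ratio 1.45 ± 0.20 SE and q = 6.6e-11, per the authors' deposited table), and still passed with the trend removed (0.83, q = 0.0027). Psmb8, the counterpart of Psmb5, rose from 1.62 to 4.51 FPKM (log2 ratio 1.47 ± 0.32 SE and q = 0.00021, per the authors' deposited table). Psmb9, the counterpart of Psmb6, stood at 1.28 and 2.76 FPKM (log2 ratio 1.11 ± 0.72 SE and q = 0.39, per the authors' deposited table). The 3 inducible genes made up 2.61% of the summed FPKM of the 6 catalytic genes without Dox and 4.72% with it. Over all tested rows 8.98% rose and 3.22% fell. Of the 10 genes of the immunoproteasome and peptide-loading list, 4 rose, 0 fell and 6 missed the threshold. Their median log2 fold was 1.02. The interferon regulator Irf1 (17.3 to 38.5 FPKM, q = 2.0e-05 in the authors' deposited table) and the peptide transporter Tap2 (0.745 to 2.08 FPKM, q = 0.044) were the other 2 rises. With the trend removed Psmb10 and Irf1 passed. The Psmb8 and Tap2 rows have the same span on chromosome 17 (34334665 to 34353266 in mm9), as do those of Psmb9 and Tap1, and the Psmb10 row overlaps Slc12a4 and Lcat. How reads were divided among such rows is unknown here, so these values are uncertain and the calls of Psmb8 and Tap2 may not be separate. Whether these genes share a source with the rises of Psme1 and Psme2 was not tested.

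Partners of the proteasome outside the Psm names moved in both directions. Of 25 listed symbols 22 were found and tested, of which 3 rose, 2 fell and 17 missed the threshold, with a median log2 fold of -0.05. Among all tested rows 8.98% rose and 3.22% fell, and with at least 1 FPKM in a group 12.3% and 4.23% did. The partners' share of rises, 13.6%, is near the latter. Shfm1, a small lid subunit, rose from 400.7 to 647.3 FPKM (log2 ratio 0.69 ± 0.16 SE and q = 0.00046, per the authors' deposited table) and passed with the trend removed (1.13, q = 3.7e-10). The latter value rests on a transcript of 1472 nt with 37.3% GC, the same in both transcript settings, and is uncertain. Pomp, the maturation factor of the core, rose from 280.4 to 389.3 FPKM (log2 ratio 0.47 ± 0.16 SE and q = 0.028, per the authors' deposited table). Adrm1, a ubiquitin receptor of the base, rose from 72.3 to 110.1 FPKM (log2 ratio 0.61 ± 0.18 SE and q = 0.012, per the authors' deposited table). Neither passed with the trend removed. The falls were in Uba6, a ubiquitin-activating enzyme (13.0 to 6.17 FPKM, q = 4.7e-07), and Ube3a, a ubiquitin ligase (15.0 to 7.50 FPKM, q = 4.3e-06), in the authors' deposited table. Neither fall passed with the trend removed, at -0.29 and -0.14, but with transcripts of middle length Uba6 did (-0.69, q = 0.0082). Ubqln2, a shuttle factor that carries ubiquitinated proteins to the proteasome, stood at 41.5 and 31.6 FPKM (q = 0.096 in the authors' deposited table). It passed as lower with the trend removed (-0.57, q = 0.023) and missed the threshold with transcripts of middle length (-0.49, q = 0.066). When the general shift was subtracted, 1 partner passed as higher, Shfm1 (0.49, q = 0.025). Passing as lower were 4, Uba6 (-1.27), Ube3a (-1.20), Ubqln2 (-0.59) and Zfand5 (-0.70). Of 17830 rows 3.47% and 6.1% did.

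The regulators of proteasome genes gave no call. Of 8 listed, 6 were tested and 0 passed at q below 0.05 or at an unadjusted p below 0.05 in the authors' test. At q below 0.05, 8.98% of all tested rows rose and 3.22% fell. At the unadjusted threshold 17.2% were higher and 6.14% lower, so 6 genes are too few to set the regulators apart. Nfe2l1, the factor that raises proteasome transcription when the proteasome is inhibited, is marked as failed in the test and stood at 36.8 FPKM in minus_Dox and 41.1 FPKM in plus_Dox. Its relative Nfe2l2 stood at 27.0 and 24.3 FPKM (q = 0.70 in the authors' deposited table), and Ddi2, the protease that activates Nfe2l1, at 20.4 and 23.3 FPKM in a row joined with Rsc1a1.

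The folds of the members followed the composition of their transcripts. Across the 44 tested members, Spearman's coefficient between log2 fold and transcript GC content was 0.83 and between log2 fold and length -0.50. Across 11869 rows with at least 1 FPKM the coefficients were 0.65 and -0.46. These describe genes measured in the same libraries, which are not independent replicates. Of the 22 members above the median GC content (49.8% to 58.3%), 13 rose, with a median log2 fold of 0.59. Of the 22 members at or below it (37.0% to 49.7%), 0 rose, with a median of 0.17. Over all 18114 tested rows 8.98% rose, and of those with at least 50 FPKM in minus_Dox 25.7% did. Shares of all rows within these GC ranges were not counted, so the split cannot be called particular to the proteasome. Median transcript length was 1112 nt for the 13 rises and 1785 nt for the 31 members that did not pass. With the level in minus_Dox the coefficient was 0.16.

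**Figure D4:**
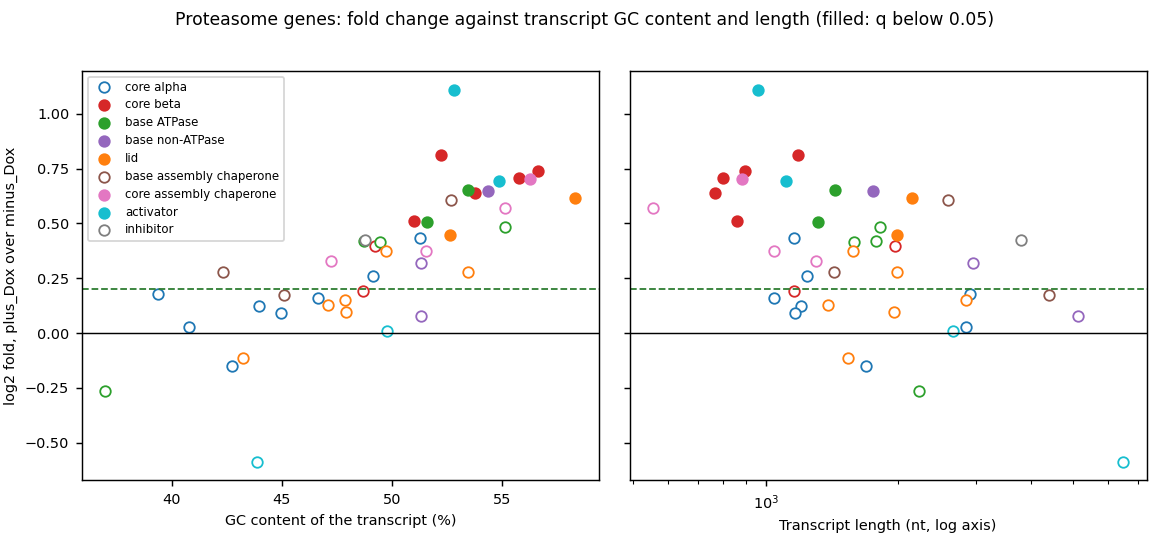
Log2 fold of the 44 tested proteasome genes against transcript GC content (left) and length (right, log axis), coloured by subcomplex, filled where q is below 0.05; the dashed line is 0.20. All filled points lie above 50% GC.

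Other large complexes, counted by name, show where the proteasome lies. Of 36 genes of respiratory complex I, 25 rose (median log2 fold 0.63). Of 80 cytosolic ribosomal protein rows 60 were tested, of which 29 rose (0.56). Of 13 eIF3 genes 4 rose (0.32), and of 8 COP9 signalosome genes 1 rose (0.24). Of 9 genes of the CCT chaperonin 0 rose (0.13). None of these genes fell. For comparison, 8.98% of all 18114 tested rows rose and 3.22% fell. With at least 50 FPKM in minus_Dox, 25.7% of tested rows rose. At an unadjusted p below 0.05 in the authors' test, 30, 45, 7, 2 and 2 genes of these complexes were higher, in the same order. Of all tested rows 17.2% were higher at that threshold. After trend removal the medians were 0.16, 0.06, 0.04, 0.15 and 0.00 in the same order. The proteasome, at 0.37 before and 0.04 after, lay within both ranges, and no difference between complexes was tested.

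**Figure D5:**
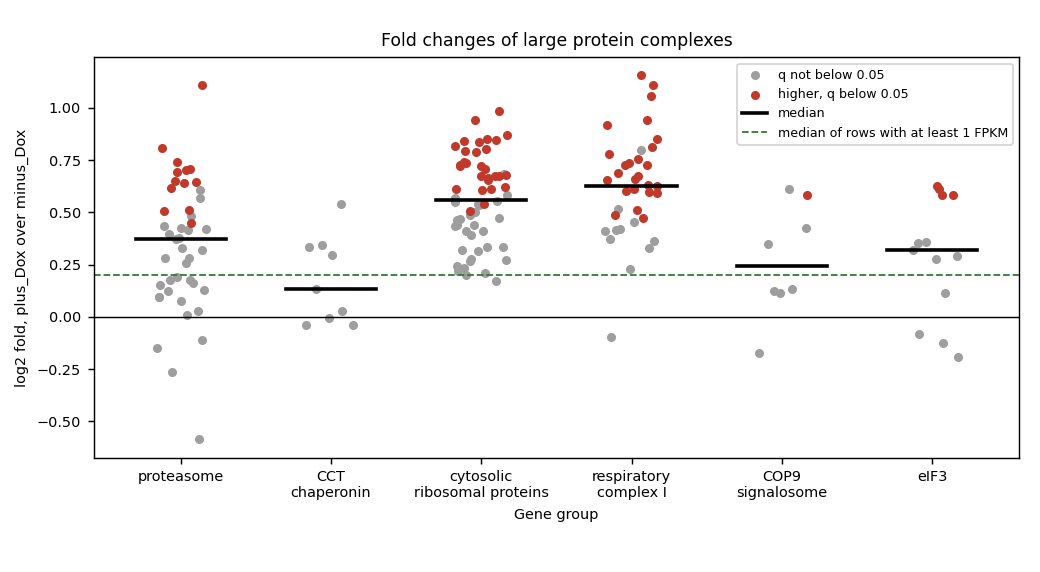
Log2 fold of each tested gene in the proteasome and 5 other complexes, red where q is below 0.05 and higher, with the median as a bar; the dashed line is 0.20. The proteasome median, 0.37, lies between those of the CCT chaperonin (0.13) and respiratory complex I (0.63).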

How the data were processed

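RNA was sequenced from 6 libraries of day 3 embryoid bodies, 3 per group, grouped by their titles. Per the submitters' processing notes, reads were handled with Bowtie, TopHat2 2.0.8 and Picard, and with Cuffdiff and Cufflinks 2.0.2, on build mm9, the role of each not being given. The annotation and the handling of strand are not given in the sources used here. Per the file headers, the authors deposited 1 FPKM value per row and group, a log2 fold, a test statistic (a score without a fixed range, its sign opposite to that of the fold), and a p-value and q-value. Columns of single libraries number 0 here, so the authors' test is the one used, depth is unknown and no counting interval was computed.

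Here symbols were split at commas and matched to the name rule. Each SE is the size of the log2 fold over that of the statistic, and 95% intervals are 1.96 SE either side. For 17830 tested rows with a finite fold, p was checked against the normal tail of the statistic (0 differences above 1e-05). Alternatives were q-value thresholds of 0.01 and 0.1, minima of 1 and 5 FPKM, pseudocounts of 1 and 0.1, joined rows left out, subtraction of the median log2 fold, and removal of a least-squares trend on natural cubic splines (6 degrees of freedom each) of GC content and log2 length. For the last 2, p came from the unchanged SE and was adjusted over all rows. The trend on GC content and length was fitted with an intercept, so the general shift is removed with it. Both properties were read from each symbol's longest basic transcript in GENCODE vM21 (94.4% of tested rows) or, added later, from that of middle length. Overlapping rows left out were also added later. The trend step was tested on simulated data. All members may be named; values are given for calls, for the highest level and the extreme folds of each subcomplex, and for others in brief. The minimum of 50 FPKM and the interferon motif were chosen after seeing the data. The members and lists were chosen with earlier results of these data known. Python 3.11.15, scipy 1.17.1, pandas 2.3.3 and patsy 1.0.2 were used.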

Additional observations from a re-analysis of the deposited data

How the results depend on the processing

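The 13 rises became 9 at a q-value threshold of 0.01 and 18 at 0.1, and stayed 13 with minima of 1 or 5 FPKM or without the joined row; 10 were left without rows that overlap others. They became 5, with 1 fall in place of 0, when the median shift was removed. They became 1 when the GC and length trend was removed, also with transcripts of middle length, Psma2 in both cases; since its values rest on a 2911 nt transcript, this one call is uncertain. The median log2 fold of 0.37 was 0.17 without the shift, 0.043 without the trend (0.095 with transcripts of middle length), 0.38 with minima of 1 or 5 FPKM or without the joined row, 0.41 without overlapping rows, and 0.37 on log2(FPKM + 1) and on log2(FPKM + 0.1). The trend removal also takes out the general shift, and it treats the trend as known.

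Signs turned only in members that did not pass as deposited. Without the shift 12 turned: Psma1 (-0.075), Psma2 (-0.023), Psma3 (-0.17), Psma4 (-0.11), Psma6 (-0.038), Psmb7 (-0.0094), Psmd1 (-0.12), Psmd6 (-0.074), Psmd11 (-0.048), Psmd12 (-0.11), Psmd5 (-0.025), Psme3 (-0.19). Without the trend 15 turned: Psma1 (-0.017), Psma4 (-0.10), Psma5 (-0.098), Psma6 (-0.12), Psma7 (-0.031), Psmb7 (-0.16), Psmc3 (-0.0032), Psmc6 (0.32), Psmd1 (-0.029), Psmd6 (-0.11), Psmd12 (-0.085), Psmd13 (-0.12), Psmg1 (-0.12), Psmg4 (-0.15), Psme3 (-0.18). The cause was not tested. No paired analysis was possible because the table has no columns of single libraries; leaving out replicates was not run for the same reason. Depth is unknown, so precision rests on the authors' SE, which ranged from 0.16 to 0.33 over the members.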
